A study of Caenorhabditis elegans with 24 samples.

Results

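The 6 pud genes of C. elegans, pud-1.1, pud-1.2, pud-2.1, pud-2.2, pud-3 and pud-4, were followed across 24 libraries of wild-type and noNSUN animals. They were taken by symbol, 6 of the 20447 genes in the count files, and were chosen by the RNA values of the heat contrast. By their means 4 of the 6 were lower at 27 °C in wild-type RNA and 6 of 6 in noNSUN RNA. The exceptions in wild type were pud-1.1 and pud-2.2, each an identical copy of another member. Because of this choice, the heat values of the 6 genes are given as a description, with no test. For these genes only the differences between the genotypes, at each temperature and in the heat response, were tested. The differences at each temperature were not used to choose the genes. The difference in the heat response is built from the heat values that were.

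Both strains were grown to adulthood at 20 °C and then moved to liquid culture at 20 °C or, for the heat shock, at 27 °C. The wild type was Bristol N2. The noNSUN strain carries a deletion allele of nsun-5 (tm3898) and a point mutation of the catalytic cysteine in each of nsun-4 (mj457), nsun-2 (mj458) and nsun-1 (mj473). It is predicted to lack active enzymes of this RNA cytosine-5 methyltransferase family. The study could not detect this methylation in total RNA of noNSUN larvae by mass spectrometry. Each of the 12 lysates of whole animals gave 1 library of rRNA-depleted RNA and 1 library of ribosome-protected fragments (RPFs), with 3 replicates for each genotype, temperature and assay. In whole animals, fewer cells of a type and less RNA per cell cannot be told apart.

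The name pud stands for protein up-regulated in daf-2. DAF-2 is the insulin receptor of the nematode, and lowering its activity frees the transcription factor DAF-16/FOXO, extends lifespan and raises many stress and metabolic proteins. PUD-1 and PUD-2 were first found as proteins that are more abundant in long-lived daf-2 mutants. They bind each other as a heterodimer with a fold like that of the aegerolysins, and have been seen in the intestine and the hypodermis of adults. PUD-3 and PUD-4 are related proteins encoded beside them.

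All 6 genes lie within 8893 bp of chromosome V in the WBcel235 assembly, the build used by the authors. From left to right they are pud-1.2 (V, 2322038 to 2322566, minus strand), pud-2.2 (2323014 to 2323524, plus), pud-3 (2324634 to 2325152, minus), pud-4 (2326678 to 2327282, plus), pud-2.1 (2329444 to 2329954, minus) and pud-1.1 (2330429 to 2330930, plus). All are annotated as protein coding. The coding part of pud-3 is 1 exon, and that of each other gene is 2. The outer genes sit in the arms of an inverted repeat, at 2320301 to 2323831 and 2329137 to 2332667, while pud-3 and pud-4 lie in the 5305 bp between the arms. Each arm is 3531 bp long, and the arms differ at 1 base, which lies outside the pud genes. The base stands in Y19D10B.6 on the left (V, 2320414) and in irld-32 on the right (V, 2332554), and is shown in capitals below so that the identity of the flanking bases can be read.
Left arm, chrV:2320394-2320434, plus strand: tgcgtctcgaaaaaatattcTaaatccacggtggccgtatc
Right arm, chrV:2332534-2332574, minus strand: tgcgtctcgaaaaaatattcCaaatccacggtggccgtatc

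**Figure D1:**
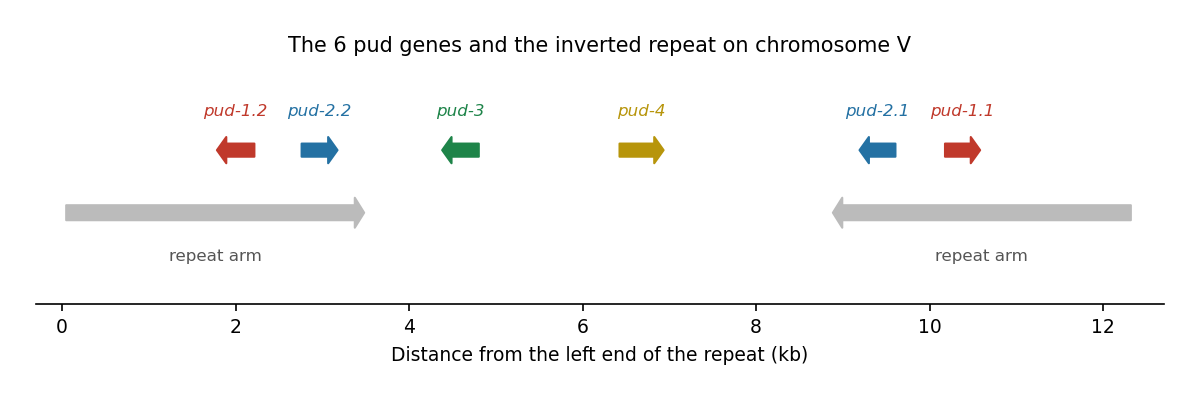
Map of the pud locus, with distance from the left end of the repeat in kb; coloured arrows are genes in their direction of transcription and grey arrows are the repeat arms. The arms point at each other, each holds 1 pud-1 and 1 pud-2 gene, and pud-3 and pud-4 lie between them.

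The repeat makes 2 pairs of copies that no read can separate. The coding sequences of pud-1.1 and pud-1.2 were identical over 453 bases, and those of pud-2.1 and pud-2.2 over 462 bases. None of the 424 stretches of 30 coding bases in pud-1 and none of the 433 in pud-2 was unique, whereas all 487 of pud-3 and all 457 of pud-4 were. A stretch was unique if it occurred once in the genome. A stretch absent from the genome, as across a splice junction, was unique if it occurred once among coding sequences. Between the 4 distinct sequences the identity was much lower, 53.7% for pud-1 against pud-2 and 63.4% for pud-3 against pud-4. The first 60 coding bases are given for the 4 distinct sequences, with the start codon in capitals, to show how far apart they are.
pud-1.1 and pud-1.2: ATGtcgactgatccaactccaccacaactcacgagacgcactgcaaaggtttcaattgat
pud-2.1 and pud-2.2: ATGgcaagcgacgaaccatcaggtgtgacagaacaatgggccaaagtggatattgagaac
pud-3: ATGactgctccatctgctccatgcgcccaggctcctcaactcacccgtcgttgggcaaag
pud-4: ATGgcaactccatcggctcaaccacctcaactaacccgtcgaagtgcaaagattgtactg

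Each pud-1 gene is transcribed away from the pud-2 gene beside it, with 474 bp between their start codons in both arms. The 250 bases before the start codon are shown because the genes were lower together after heat. Capitals mark matches on either strand. The first motif is TGATAA (read as TTATCA on the other strand), a form of the core recognised by GATA factors. The others are TGATAAG (read as CTTATCA), the DAF-16-associated element, and GAANNTTC or TTCNNGAA, inverted units of a heat shock element. AGATAA, another form of the GATA core, stands in the pud-2 and pud-4 windows and was not marked. A match is a description of letters only.
pud-1.1 (chrV:2330179-2330428, plus) and pud-1.2 (chrV:2322540-2322789, minus): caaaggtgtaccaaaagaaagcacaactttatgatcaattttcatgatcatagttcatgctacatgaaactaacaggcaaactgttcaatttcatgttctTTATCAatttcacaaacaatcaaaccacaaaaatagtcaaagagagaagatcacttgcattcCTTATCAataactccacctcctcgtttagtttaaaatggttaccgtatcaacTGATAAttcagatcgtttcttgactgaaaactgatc
pud-2.1 (chrV:2329955-2330204, minus) and pud-2.2 (chrV:2322764-2323013, plus): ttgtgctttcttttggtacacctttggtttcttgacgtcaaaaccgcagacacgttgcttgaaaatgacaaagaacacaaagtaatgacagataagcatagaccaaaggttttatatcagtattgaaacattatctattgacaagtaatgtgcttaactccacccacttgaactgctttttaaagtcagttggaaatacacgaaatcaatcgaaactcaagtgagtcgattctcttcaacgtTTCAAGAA
pud-3 (chrV:2325153-2325402, minus): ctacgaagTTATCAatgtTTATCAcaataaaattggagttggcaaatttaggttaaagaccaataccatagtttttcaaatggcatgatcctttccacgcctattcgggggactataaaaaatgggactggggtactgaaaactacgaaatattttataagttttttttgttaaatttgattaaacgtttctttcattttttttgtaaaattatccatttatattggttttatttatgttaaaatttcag
pud-4 (chrV:2326428-2326677, plus): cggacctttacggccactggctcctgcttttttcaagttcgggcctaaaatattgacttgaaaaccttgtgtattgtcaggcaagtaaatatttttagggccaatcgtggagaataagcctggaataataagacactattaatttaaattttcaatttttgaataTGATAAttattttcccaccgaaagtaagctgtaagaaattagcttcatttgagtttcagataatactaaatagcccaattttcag

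The TGATAA core occurred 3 times before pud-1, at 150, 87 and 36 bases from the start codon, 2 times before pud-3, 1 time before pud-4 and 0 times before pud-2. At least 1 such match was found before 26.9% of 19619 genes. Other forms of the GATA core, such as AGATAA, were not counted, so 0 matches do not mean that such sites are absent. The DAF-16-associated element, which contains the core, occurred 1 time before pud-1, 88 bases from the start codon, and before 8.4% of all genes. The inverted units of a heat shock element matched 1 time before pud-2, in the last 8 bases before the start codon, and before 28.3% of all genes. The DAF-16 binding element GTAAACA (read as TGTTTAC on the other strand) was in 4.16% of all windows and in none of the pud windows.

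The deposited counts treated the copies differently in the RNA and in the footprints. Over the 12 RNA libraries pud-1.1 received 6 of the 494 counts of its pair, 1.21% with an exact 95% interval of 0.447 to 2.62%, and pud-1.2 the other 488. In the same libraries pud-2.1 received 460 of 505 counts, 91.1% (88.3 to 93.4%). The favoured gene of each pair was the one on the minus strand. Footprints were shared more evenly, with 418 of 897 counts on pud-1.1, 46.6% (43.3 to 49.9%), and 319 of 749 on pud-2.1, 42.6% (39.0 to 46.2%). These intervals cover counting error only.

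**Figure D2:**
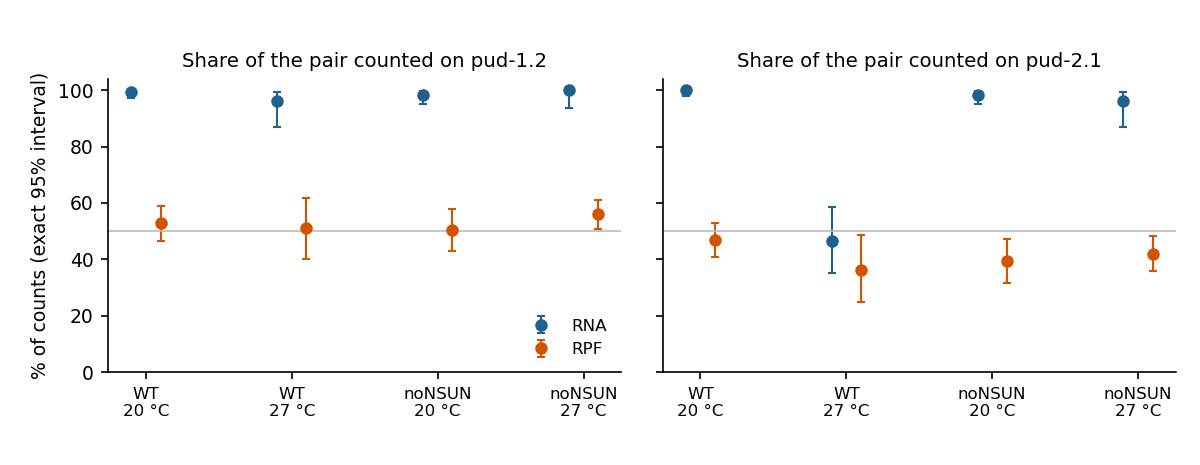
Share of each pair's counts assigned to pud-1.2 (left) and to pud-2.1 (right) in each group, in % with exact 95% intervals, for RNA (blue) and footprints (orange). RNA counts lie near 100% on 1 copy, except for pud-2.1 in wild type at 27 °C (46.7%), and footprint counts lie between 36.2% and 56.0%.

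The exception in the RNA came from 1 library. In wild type at 27 °C pud-2.2 had 40 counts in replicate 1 and 0 in replicates 2 and 3, and in the other 9 RNA libraries it had between 0 and 2. Because reads of a pair cannot be told apart, the 2 pud-1 genes were summed, and so were the 2 pud-2 genes, and values of single copies are given only where a count of members needs them. Footprints were stated to be uniquely aligned, yet 897 and 749 of them stood on sequences with no unique stretch of 30 bases.

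In RNA all 4 sequences were lower at 27 °C than at 20 °C in both genotypes by their means, and pud-3 was the most lowered. Values are CPM, the counts scaled to library size with TMM over the tested genes. For pud-3, wild-type animals had 76.5, 33.8 and 67.8 CPM at 20 °C in replicates 1, 2 and 3, and 15.1, 5.24 and 4.12 CPM at 27 °C. The noNSUN animals had 48.1, 52.0 and 46.5 CPM at 20 °C, then 15.1, 8.81 and 8.12 CPM at 27 °C. The temperatures did not overlap in either genotype. The mean level was 7.28-fold lower after heat in wild type (59.4 ± 22.6 against 8.16 ± 6.05 CPM, SD, n = 3) and 4.58-fold lower in noNSUN (48.9 ± 2.86 against 10.7 ± 3.85 CPM). The fitted log2 fold changes were -2.77 ± 0.405 (SE) and -2.2 ± 0.398. Without replicate 1 of wild type at 27 °C, the highest of its group for all 4 sequences, the wild-type value was -3.65.

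RNA of pud-4, the other gene outside the repeat, moved less. Wild type had 18.6, 10.8 and 21.4 CPM at 20 °C, then 9.96, 8.58 and 6.18 CPM at 27 °C, with no overlap and a 2.05-fold lower mean. The noNSUN strain had 8.09, 13.3 and 9.81 CPM at 20 °C, then 8.24, 4.64 and 8.12 CPM at 27 °C, which overlapped. Its mean was 1.49-fold lower at 27 °C. The log2 fold changes were -1.02 ± 0.321 (SE) in wild type and -0.57 ± 0.337 in noNSUN, and the latter was -0.14 without the libraries of replicate 2.

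RNA of the summed pud-1 genes was 31.2, 10.8 and 25.4 CPM in wild type at 20 °C and 10.6, 7.63 and 3.09 CPM at 27 °C. The groups were separated by a narrow margin, 10.8 against 10.6 CPM, and the mean was 3.15-fold lower after heat. In noNSUN the values were 18.1, 22.2 and 20.3 CPM at 20 °C, then 8.24, 6.96 and 9.28 CPM at 27 °C, clearly apart, with a 2.47-fold lower mean. The log2 fold changes were -1.61 ± 0.399 (SE) and -1.30 ± 0.397.

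RNA of the summed pud-2 genes was 30.9, 15.2 and 21.1 CPM in wild type at 20 °C and 20.95, 4.77 and 2.06 CPM at 27 °C. These overlapped through the library with the 40 counts of pud-2.2. The log2 fold change in wild type was -1.17 ± 0.558 (SE), and -2.68 without that library. In noNSUN the values were 22.3, 20.99 and 16.7 CPM at 20 °C, then 11.9, 7.88 and 3.87 CPM at 27 °C, without overlap, with a log2 fold change of -1.36 ± 0.583.

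**Figure D3:**
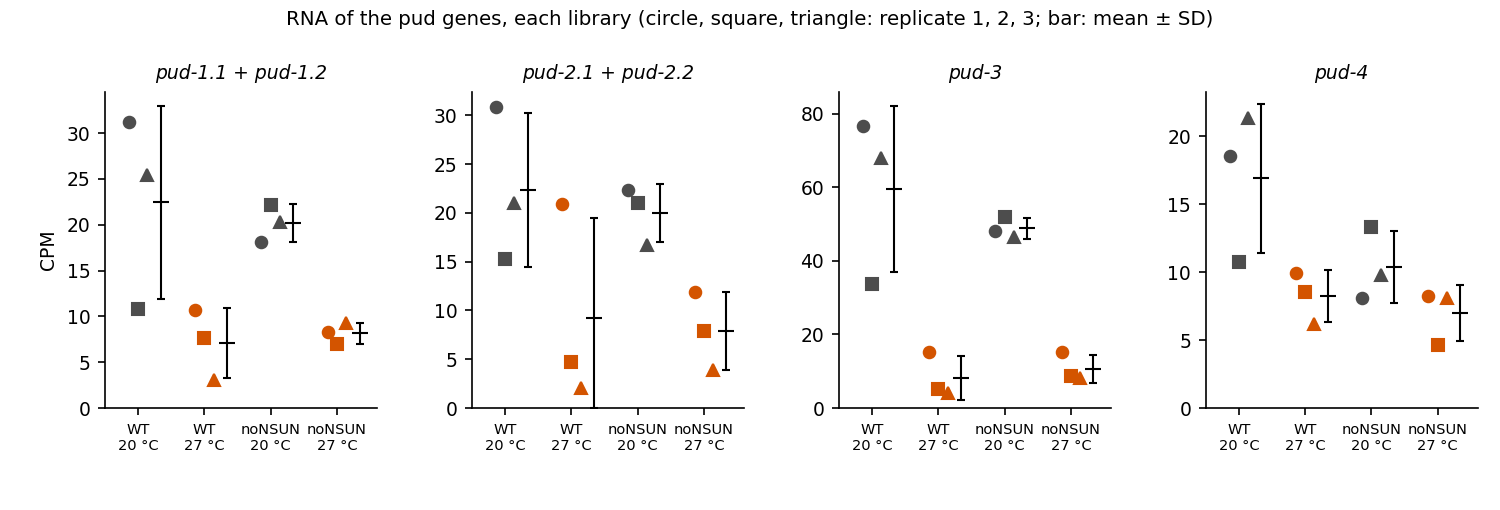
RNA level in CPM of the summed pud-1 genes, the summed pud-2 genes, pud-3 and pud-4 in each of the 12 RNA libraries, grey at 20 °C and orange at 27 °C, with the mean and SD of 3 replicates beside each group. The vertical scales differ between panels. Orange points lie below grey ones except for pud-2 in wild type and pud-4 in noNSUN.

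Summed over all 6 genes, RNA was 121 ± 45.1 CPM (SD, n = 3) in wild type and 99.5 ± 8.00 CPM in noNSUN at 20 °C. At 27 °C it was 32.8 ± 21.4 and 33.7 ± 8.48 CPM. The order of the groups was thus wild type at 20 °C, noNSUN at 20 °C, noNSUN at 27 °C and wild type at 27 °C. The genotypes overlapped at each temperature, whereas within each genotype every library at 20 °C lay above every library at 27 °C. In wild type at 20 °C replicate 2 was the lowest library for all 4 sequences.

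Counted as single genes, 4 of the 6 members were lower at 27 °C without overlap in wild-type RNA and 3 of 6 in noNSUN RNA. Over all 10815 genes tested in RNA the shares were 6.05% and 9.36%. Since this contrast chose the members, nothing is read from their count. Per kb of exon, pud-3 had the highest RNA level in wild type at 20 °C, 114 ± 43.5 CPM per kb (SD, n = 3), followed by pud-2 with 48.2 ± 17, pud-1 with 46.5 ± 21.8 and pud-4 with 29.99 ± 9.73. Levels of the pairs rest on reads of identical copies, so their place in this order is uncertain. pud-1 and pud-2 did not differ beyond their spread.

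Footprints of the pud genes were also lower after heat by their means. The summed pud-1 genes had 1803, 1074 and 1759 CPM in wild type at 20 °C, and 994, 322 and 362 CPM at 27 °C. In noNSUN they had 1176, 1417 and 1928 CPM at 20 °C, then 1203, 674 and 1032 CPM at 27 °C. The temperatures were apart in wild type and overlapped in noNSUN. At 27 °C the wild-type values rest on 74, 8 and 6 counts, and the noNSUN values on 145, 199 and 24. The means were 2.76-fold and 1.55-fold lower, and the log2 fold changes were -1.23 ± 0.343 (SE) and -0.61 ± 0.315. Without replicate 1 of wild type at 27 °C the wild-type value was -2.17, resting at 27 °C on the libraries with 8 and 6 counts.

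The summed pud-2 genes had 1830, 1134 and 1801 footprint CPM in wild type at 20 °C, and 659, 403 and 603 CPM at 27 °C. In noNSUN they had 889, 1197 and 2164 CPM at 20 °C, then 788, 491 and 516 CPM at 27 °C. Neither genotype showed overlap. At 27 °C the wild-type values rest on 49, 10 and 10 counts, and the noNSUN values on 95, 145 and 12. The log2 fold changes were -1.47 ± 0.335 (SE) in wild type and -1.13 ± 0.31 in noNSUN, close to each other relative to these errors.

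Footprints of pud-3 and pud-4 were few, and neither gene passed the filter on low counts. pud-3 had 7, 6 and 13 footprint counts in wild type at 20 °C and 1, 2 and 1 at 27 °C, against 6, 10 and 5 and then 4, 5 and 0 in noNSUN. pud-4 had 8, 6 and 3 counts in wild type at 20 °C and 0 in each of 3 libraries at 27 °C, where 3 counts over the group would be 25.9 CPM. Against that floor its pooled level at 20 °C, 92.7 CPM, was at least 3.58-fold higher. In noNSUN pud-4 had 1, 0 and 3 counts at 20 °C and 3, 10 and 0 at 27 °C, at a depth that allows no comparison. Footprint libraries held between 22761 and 396184 counts, against 1918731 to 3412334 in RNA.

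**Figure D4:**
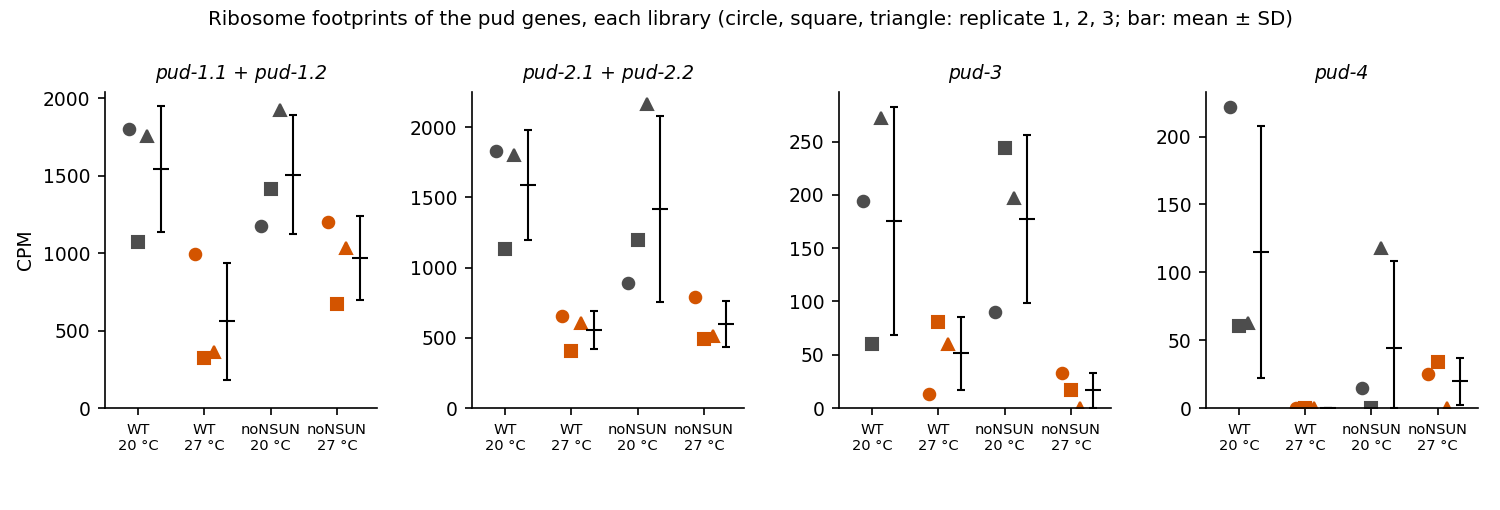
Footprint level in CPM of the summed pud-1 genes, the summed pud-2 genes, pud-3 and pud-4 in each of the 12 footprint libraries, grey at 20 °C and orange at 27 °C, with the mean and SD of 3 replicates beside each group. The vertical scales differ between panels. pud-2 is separated by temperature in both genotypes and pud-1 in wild type, while pud-3 and pud-4 rest on at most 13 counts per library.

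As single genes, 5 of 6 members were lower at 27 °C without overlap in wild-type footprints and 2 of 6 in noNSUN footprints, where the shares over all 1624 genes tested were 6.96% and 11%. The wild-type count holds both copies of each pair and pud-4, and becomes 3 of 4 when the copies are summed. The noNSUN count holds pud-2.1 and pud-3. Neither pud-3 nor pud-4 passed the filter that the 1624 genes passed, so nothing is read from these counts. The noNSUN count was unstable. It was 4 without replicate 1 of noNSUN at 27 °C, 5 without all libraries of replicate 1, 4 without those of replicate 3, and 1 without replicate 2 of wild type at 20 °C, which acts through the scaling alone.

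The genotype comparison asked whether loss of the NSUN enzymes altered pud RNA or footprints at either temperature. No member was called at an adjusted p under 0.05 with edgeR's quasi-likelihood test, in RNA (4 of 6 members tested), footprints (4 of 6) or translation efficiency (2 of 6), the change of footprints relative to RNA. The same held with DESeq2, although it gave no adjusted p for translation efficiency at 20 °C. Over all tested genes, edgeR called 0.0832% in RNA at 20 °C and 0.0277% at 27 °C, 1.72% and 0.0616% in footprints, and 0.375% and 0% in translation efficiency. At an unadjusted p under 0.05 there was 1 member in RNA at 20 °C, pud-4, and 0 in the other comparisons. Over all tested genes that unadjusted count was 491 of 10815 in RNA at 20 °C and 306 at 27 °C, 275 and 120 of 1624 in footprints, and 258 and 93 of 1599 in translation efficiency.

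RNA of pud-4 at 20 °C was lower in noNSUN than in wild type by its mean, 10.4 ± 2.66 against 16.9 ± 5.49 CPM (SD, n = 3), and the groups overlapped. The log2 fold change was -0.69 ± 0.306 (SE), with an edgeR p of 0.0407 and an adjusted p of 0.937. A block for the replicate number gave an adjusted p of 0.317. At 27 °C the log2 fold change of pud-4 was -0.24 (95% interval -1.01 to 0.52).

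For pud-3 the RNA log2 fold change of noNSUN against wild type was -0.28 at 20 °C (95% interval -1.01 to 0.44) and 0.29 at 27 °C (-0.73 to 1.3). For the summed pud-1 genes it was -0.16 (-0.92 to 0.61) and 0.15 (-0.80 to 1.11). For the summed pud-2 genes it was -0.17 (-1.28 to 0.95) and -0.35 (-1.70 to 1.00). These intervals are wide, so the data do not show that the genotypes are alike. They come from a fit without a term for the replicate number, by which the RNA samples are paired.

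Footprints gave narrower intervals. The summed pud-1 genes differed between noNSUN and wild type by -0.08 on the log2 scale at 20 °C (95% interval -0.72 to 0.56) and by 0.54 at 27 °C (-0.17 to 1.24). The summed pud-2 genes differed by -0.24 (-0.85 to 0.37) and 0.10 (-0.61 to 0.81). The largest of these, pud-1 at 27 °C, had an edgeR adjusted p of 0.757. It was 1.47 without replicate 1 of wild type at 27 °C, with an edgeR adjusted p of 0.372, and 0.25 without replicate 1 of noNSUN at 27 °C.

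Whether heat acted differently in the 2 genotypes was tested as an interaction term, which was likewise not called for any member. The RNA term is built from the heat values that chose the members, so it is not independent of that choice. In RNA the interaction was 0.57 for pud-3 on the log2 scale (95% interval -0.68 to 1.82), 0.45 for pud-4 (-0.56 to 1.46), 0.31 for pud-1 (-0.92 to 1.53) and -0.18 for pud-2 (-1.93 to 1.56). In footprints it was 0.62 for pud-1 (-0.34 to 1.57) and 0.34 for pud-2 (-0.59 to 1.28). A positive value means a smaller drop in noNSUN. Without replicate 1 of wild type at 27 °C the interaction was 1.45 for pud-3 RNA and 1.55 for pud-1 footprints, also not called (edgeR adjusted p = 0.995 and 0.336). Over all genes 0% were called by edgeR in RNA, in footprints and in translation efficiency, with 125, 84 and 117 genes at an unadjusted p under 0.05. The deeper mean drop of pud-3 RNA in wild type is therefore not shown to differ from that in noNSUN.

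**Figure D5:**
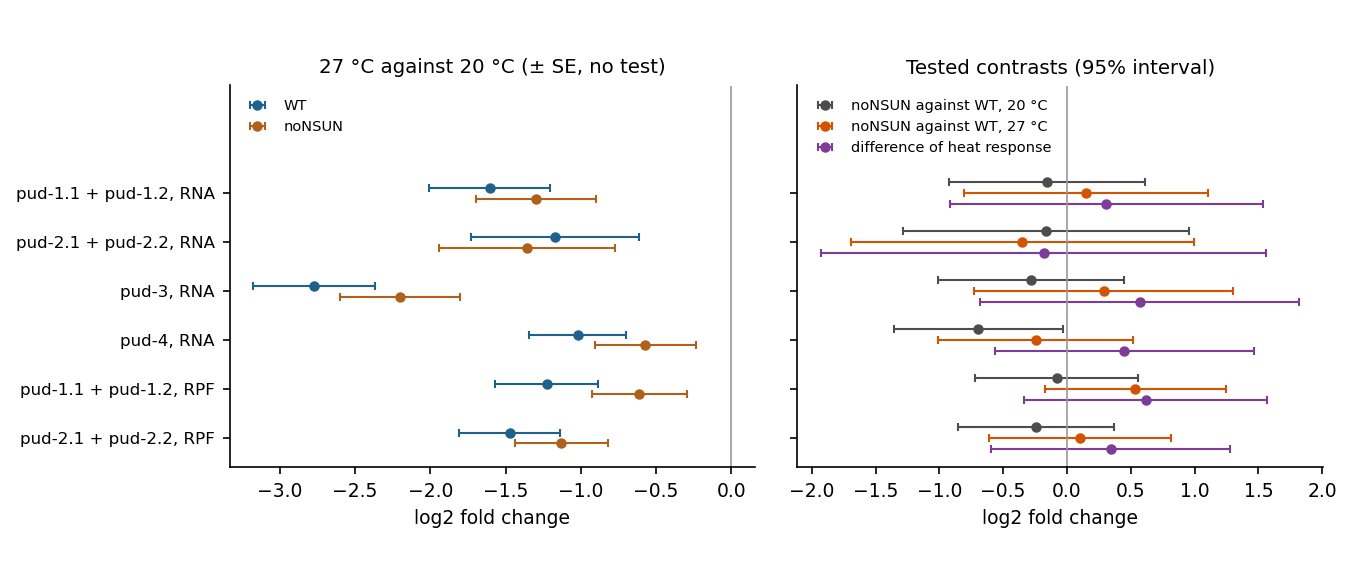
Log2 fold changes of the 4 pud sequences in RNA and of the 2 summed pairs in footprints. The left panel gives 27 °C against 20 °C in each genotype with SE and no test, and all values lie below 0. The right panel gives the tested contrasts with 95% intervals, which include 0 except for pud-4 RNA at 20 °C.

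With the filter on low counts, translation efficiency was fitted only for the pairs, as single genes pud-1.2 and pud-2.1. For the summed pud-1 genes it differed between noNSUN and wild type by 0.08 on the log2 scale at 20 °C (95% interval -0.92 to 1.08) and 0.33 at 27 °C (-0.97 to 1.64). For the summed pud-2 genes the values were -0.09 (-1.30 to 1.12) and 0.49 (-1.04 to 2.01). The interaction was 0.26 (-1.41 to 1.92) and 0.58 (-1.37 to 2.52). The widest of these intervals belonged to pud-2, whose RNA holds the library with 40 counts on pud-2.2.

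The ratio of footprints to RNA, each per kb, was 78.5 for the summed pud-1 genes and 76.4 for the summed pud-2 genes in wild type at 20 °C, above 99.6% of the 1595 other genes tested in both assays, whose median was 2.26. For pud-3 the ratio was 3.16, above 66.0% of them, and for pud-4 it was 8.41, above 93.5%. These ratios rest on 26 footprint counts of pud-3 and 17 of pud-4. Among these genes 13 also had no unique stretch of 30 coding bases, and their median ratio was 6.41, above 89.7% of all. How much of the ratio of the pud pairs comes from the handling of identical copies was not tested.

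Leucine and proline codons are given because the study asked how they are translated without the NSUN enzymes. UUG made up 1 of 151 codons of pud-1, 3 of 154 of pud-2, 1 of 172 of pud-3 and 1 of 162 of pud-4, against 2.02% over all coding sequences. Leucine codons were 2.65% of pud-1, 5.20% of pud-2, 4.07% of pud-3 and 4.32% of pud-4, below the 8.63% over all genes. Proline codons were between 2.60% and 4.65%, against 4.91% over all.

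Genes of the insulin pathway, from which the pud genes take their name, showed no called change in RNA. The activity of the pathway was not measured, and RNA levels of its genes do not show it. All 14 genes of the list, among them daf-2, the PI3 kinase gene age-1 and daf-16, were tested in RNA, and 0 of 14 were called by edgeR after heat in wild type, after heat in noNSUN or between the genotypes. Over all genes tested in RNA, 0.943% were called after heat in wild type and 1.04% in noNSUN. daf-2 had 386 ± 23.9 CPM (SD, n = 3) in wild type at 20 °C and 366 ± 9.56 CPM at 27 °C. daf-16 had 240 ± 9.99 and 242 ± 8.18 CPM. The median log2 fold change of the list after heat was -0.05 in wild type and -0.06 in noNSUN, against -0.01 and 0.01 over all tested genes.

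Other genes known to be raised through DAF-16 were examined as a list. Over all genes tested in RNA, 0.943% were called after heat in wild type and 1.04% in noNSUN, so a list of this size can show few calls. Of 22, 14 were tested in RNA, 0 were called after heat in wild type, and 1 was higher and 0 lower in noNSUN. That gene was mtl-1, a metallothionein, at 9.67 ± 4.48 CPM at 20 °C, then 51.8 ± 10.6 CPM at 27 °C in noNSUN (log2 fold change 2.44 ± 0.345 SE, edgeR adjusted p = 0.0029). In wild type mtl-1 went from 10.03 ± 3.90 to 27.0 ± 5.66 CPM (log2 fold change 1.43, edgeR adjusted p = 0.0915), and its heat response was not called as different between the genotypes (edgeR adjusted p of the interaction 0.9999). dod-3 had log2 fold changes of -1.24 in wild type and -0.94 in noNSUN (edgeR adjusted p = 0.0614 and 0.187). For cyp-34A9 they were -0.47 and 1.17 (edgeR adjusted p = 0.895 and 0.697). The list's median log2 fold change was -0.08 in wild type and 0.09 in noNSUN. In footprints 2 of 7 tested were higher after heat in noNSUN, mtl-1 and lea-1, a gene for a late embryogenesis abundant protein, and 0 of 7 in wild type. Their footprint log2 fold changes in noNSUN and wild type were 3.12 and 2.03 for mtl-1, and 0.81 and 0.77 for lea-1. The difference between the genotypes was not called for either gene (edgeR adjusted p of the interaction 0.932 and 0.999). The shares over all genes tested in footprints were 3.45% in noNSUN and 1.29% in wild type. Between the genotypes 0 of 14 were called in RNA at either temperature. In footprints 1 of 7 was called at 20 °C and 0 of 7 at 27 °C, against 1.72% and 0.0616% of all genes tested. The 1 called was sip-1, a small heat-shock protein gene with more footprints in noNSUN (log2 fold change 1.00 ± 0.261 SE, edgeR adjusted p = 0.0463).

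Of 10 genes known to be lowered in daf-2 mutants, 8 were tested in RNA, and 0 were called after heat in either genotype. The shares over all genes tested in RNA were 0.943% in wild type and 1.04% in noNSUN. Between the genotypes 1 of 8 was called at each temperature, against 0.0832% of all genes tested in RNA at 20 °C and 0.0277% at 27 °C. This was dod-23, higher in noNSUN at 20 °C (296 ± 73.2 against 96.5 ± 24 CPM, SD, n = 3, edgeR adjusted p = 0.0089) and at 27 °C (188 ± 33.0 against 66.7 ± 4.70 CPM, edgeR adjusted p = 0.0394). In footprints dod-23 was higher in noNSUN at 20 °C, 1 of 4 tested, against 1.72% of all genes tested in footprints. After heat in noNSUN the footprints of the yolk protein genes vit-2 and vit-5 were lower, 2 of 4 tested, with log2 fold changes of -0.89 ± 0.247 and -1.21 ± 0.248 (SE). In wild type 0 of 4 were called, with values of -0.20 for vit-2 and -0.65 for vit-5. The interaction was not called for vit-2 or vit-5 (edgeR adjusted p = 0.840 and 0.845). After heat, 3.45% of all genes tested in footprints were called in noNSUN and 1.29% in wild type.

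None of the 7 annotated genes within 10 kb of a pud gene passed the filter in RNA or in footprints, so a change of the flanking genes could not be examined. The genes most like the summed pud RNA over the 12 RNA libraries, by Pearson correlation of log2 CPM among 8085 genes, were hrg-11.2 (r = 0.962), hphd-1 (0.955), folt-2 (0.947), papl-1 (0.946) and nhr-68 (0.935). These r values share the libraries and the step between the temperatures. hphd-1 encodes an enzyme of the propionate shunt, folt-2 a folate transporter and nhr-68 a nuclear hormone receptor. hphd-1 went from 295 ± 114 to 62.5 ± 23.9 CPM (SD, n = 3) in wild type and from 236 ± 26.7 to 57.5 ± 9.98 CPM in noNSUN.

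Markers of the tissues in which PUD proteins have been seen did not separate the temperatures. The summed RNA of 8 intestine genes, all detected, ranged from 1686 to 4339 CPM in wild type at 20 °C and from 1769 to 3007 CPM at 27 °C, and from 1655 to 2524 and 1859 to 2707 CPM in noNSUN. The 8 hypodermis genes, also all detected, ranged from 966 to 1569 and 994 to 1198 CPM in wild type, and from 909 to 1168 and 921 to 1079 CPM in noNSUN. By edgeR 0 of these 16 genes were called after heat in either genotype.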

How the data were processed

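RNA-seq and ribosome profiling were done on the same lysates of whole adults. Each deposited file gives the unnormalised counts of 1 library for every gene. The authors trimmed reads with Trimmomatic 0.39 after quality checks with FastQC, removed those of rRNA and aligned the rest to WBcel235 with HISAT2 2.1.0. RNA was counted with HTSeq, per the labels, whose version, strand setting and treatment of multiply aligned reads were not given in the sources used here. For footprints, in-frame reads on each gene's longest coding sequence were counted, without the first codons.

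The members and all gene lists were chosen with earlier results of these data known. Gene identifiers were named by the RefSeq annotation, which separates pud-2.1 from pud-2.2, and sequences were read from the WBcel235 genome. The genes named in the text were the 6 members, their summed copies, neighbours within 10 kb and the 5 genes most correlated with the summed members (mean of at least 10 CPM, pseudocount 0.5). Of the 3 lists, called genes, pathway heads and genes with large RNA changes after heat (dod-3 and cyp-34A9) were named.

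Counts were fitted in R 4.3.3 with edgeR 4.0.16, with TMM scaling on genes that passed filterByExpr (minimum count 10, minimum total 15), 1 coefficient per group over the 12 libraries of an assay, two-sided quasi-likelihood tests and Benjamini-Hochberg adjustment over all genes tested. Tested genes held 99.3 to 99.6% of the counts of RNA libraries and 70.2 to 74.5% of those of footprint libraries. Translation efficiency was the interaction of assay and group over all 24 libraries. SE was derived from the fold change and the F statistic. The code was tested on simulated data. The study calls the replicates biological, without saying in the sources used here whether each was a separate culture, so p-values measure the spread between these samples. Same-numbered RNA libraries of every pair of groups compared deviated together (lowest correlation 0.181), so the numbers pair the RNA samples. Over all pairs of groups the correlation was above 0.1 in 17 of 18 same-numbered pairs and in 12 of 36 others. The main fit held no term for the replicate number, and the intervals given are from that fit. Footprint libraries of the same number deviated together less, with 7 of 18 pairs above 0.1 against 0 of 36 others (lowest -0.0886 over all pairs of groups). Alternatives were DESeq2 1.42.0, RLE scaling, no filter, the compared groups alone, a replicate block, summed copies, and each library or replicate number left out.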

Additional observations from a re-analysis of the deposited data

How the results depend on the processing

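The member call counts were 0 in all 9 tested comparisons under every alternative that gave a value. The alternatives gave 472 values for 24 results of the pud sequences that passed the filter. The lowest adjusted p among them was 0.317 (pud-4 RNA at 20 °C with the replicate block). The block changed no call. With 1 coefficient per lysate as the block, the translation efficiency of pud-1 at 20 °C turned from 0.08 to -0.018 on the log2 scale. The count of members lower without overlap in noNSUN footprints was 1 with RLE scaling, and 1 to 5 when 1 library or replicate number was left out. The wild-type footprint count was 3 with the copies summed, since there are then 4 features. All heat values kept their direction with RLE scaling and with any library or replicate number left out, the alternatives run on them.

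Leaving out 1 library or replicate number turned the direction of several values that were never called. On the log2 scale the noNSUN difference of RNA at 20 °C ranged from -0.55 to 0.19 for pud-1 and -0.41 to 0.13 for pud-2. At 27 °C it ranged from -0.27 to 0.59 for pud-1, -0.77 to 1.16 for pud-2, -0.038 to 1.17 for pud-3 and -0.52 to 0.00086 for pud-4. The RNA interaction ranged from -0.22 to 0.84 for pud-1, -0.61 to 1.32 for pud-2 and -0.085 to 1.15 for pud-4. In footprints the difference at 20 °C ranged from -0.31 to 0.21 for pud-1 and -0.58 to 0.14 for pud-2, that at 27 °C from -0.20 to 0.31 for pud-2, and the interaction of pud-2 from -0.12 to 0.66. Translation efficiency at 20 °C ranged from -0.069 to 0.30 for pud-1 and -0.52 to 0.30 for pud-2, that at 27 °C from -0.82 to 0.88 for pud-2, and the interactions from -0.070 to 0.79 for pud-1 and -0.78 to 0.99 for pud-2. Without turning, the footprint difference of pud-1 at 27 °C ranged from 0.25 to 1.47, its footprint interaction from 0.29 to 1.55 and the RNA interaction of pud-3 from 0.24 to 1.45, with the highest of each without replicate 1 of wild type at 27 °C. The cause was not tested. Footprints of pud-3 and pud-4 did not pass the filter on low counts, so no fitted values are given for them.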

Other observations

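The uneven split of RNA counts between identical pud copies was also seen in other genes. Besides the 2 pud pairs, 49 pairs of genes had identical longest coding sequences on opposite strands, and 23 of them had at least 10 RNA counts. In 18 of the 23 pairs at least 90% of the RNA counts stood on the minus-strand gene, in 1 pair at most 10%, and the median share was 99.1%. Among 21 pairs with at least 10 footprint counts, the share of the minus-strand gene was between 10% and 90% in all 21, with a median of 55.2%. The histone genes his-65 and his-47 had 1 and 5049 RNA counts but 457 and 624 footprint counts. These pairs were examined after the split of the pud counts had been seen.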
